A study of Mus musculus with 21 samples.

Results

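The endoplasmic reticulum (ER) is where secreted and membrane proteins fold, and 39 mouse genes of ER protein folding and of the unfolded protein response are described here in sorted intestinal Lgr5 cells. They were picked by gene symbol from the 37310 genes of the deposited tables, and all 39 passed the filter on low counts that left 16050 genes for testing. Their RNA was read by bulk sequencing of 21 libraries, 3 in each of 7 groups. The labels speak of a mouse per library but give no animal numbers. All mice were Lgr5EGFPcre-ERT2 mice aged 3 months that had eaten a purified diet since weaning, and the sorted cells were the brightest EGFP fraction of dispersed crypts.

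AIN_VdrKO mice ate AIN76A, the purified control diet, and were labelled as vitamin D receptor knockouts. AINlowVitD mice ate AIN with vitamin D labelled 0.11 IU/g, NWD1VitD mice ate NWD1 with vitamin D labelled 2.3 IU/g, and NWD1Ca mice ate NWD1 with calcium labelled 7.0 mg/g. NWD2 and NWD1 mice ate the diets of those names, whose composition the labels do not give, and NWD1 is known as a purified Western-style diet. AIN mice ate AIN76A and had no labelled knockout. AIN_VdrKO libraries were all male and NWD1Ca libraries all female, and every other group held both sexes. The Lgr5 promoter drives EGFP and an inducible Cre in these mice, and the labels name no allele on which the Cre acts. Vdr itself had 297, 482 and 247 CPM in AIN_VdrKO, against 338, 373 and 746 CPM in AIN. The labels do not say which part of Vdr was removed and a gene count takes in the rest of the transcript, so these values do not check the knockout label.

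Sensors in the ER membrane, encoded by Ern1 (IRE1), Atf6 and Eif2ak3 (PERK), respond to unfolded protein. IRE1 splices the mRNA of Xbp1, cleaved ATF6 enters the nucleus, and PERK slows translation while raising ATF4, which in turn can raise CHOP, the product of Ddit3. The factors made by these arms raise chaperones, disulfide isomerases and the machinery of ER-associated degradation, which returns misfolded protein to the cytosol. In the intestinal epithelium the response is known above all for secretory cells, namely goblet and Paneth cells, where Xbp1 and Ern2 are needed for normal secretion. Gene counts measure the amount of RNA only, so the splicing of Xbp1 and the cleavage of ATF6 are not seen in them.

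The libraries held 19889795 to 115435120 counts over genes, and spike-in RNA took between 1.35e-05% and 24.7% of all counts. They did not mix evenly. On the first principal component of log2 CPM, which held 43.9% of the variance, NWD1Ca, NWD1VitD and AINlowVitD lay between 71.2 and 79.2. AIN, NWD1 and NWD2 lay between -104.3 and -38.6, and AIN_VdrKO lay at 43.8, 3.8 and -21.9. The labels give 4 index pairs each to a library of AIN, NWD1 or NWD2 and to a library of another group. AINlowVitD against AIN, NWD1Ca against NWD1 and NWD1VitD against NWD1 each set 1 block of libraries against another, and in them the diet and the block cannot be told apart. Every AIN_VdrKO library lay above every AIN library and below every AINlowVitD library on this component. In AIN_VdrKO against either group, the labelled knockout and the position on the component cannot be told apart. Lgr5 was present in every library, at 9.49 to 87.2 CPM (counts scaled by library size), beside markers of other epithelial cells. In bulk RNA, fewer cells of a type and less RNA per cell cannot be told apart.

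Goblet and Paneth cells express ER chaperones strongly, so marker lists of other cell types are given as sums over each list in CPM, with the range over the 3 libraries of a group. For 7 goblet cell markers the sums were 7035 to 16400 in AIN_VdrKO, 43930 to 62530 in AINlowVitD, 40060 to 89360 in NWD1VitD, 48230 to 54610 in NWD1Ca, 8898 to 20230 in NWD2, 7962 to 20920 in NWD1 and 14130 to 29000 in AIN. By edgeR, with a gene called at an adjusted p under 0.05, 2 of these 7 were higher in AINlowVitD than in AIN and none was called in AIN_VdrKO against AIN. Against NWD1, 2 were higher and 1 lower in NWD1Ca, and 3 were higher in NWD1VitD. The median log2 fold changes of the goblet cell markers were 0.07 in AINlowVitD, -0.64 in AIN_VdrKO, 0.15 in NWD1Ca and 0.64 in NWD1VitD. A sum is set mostly by the most abundant genes of its list. For 7 Paneth cell markers the sums were 8301 to 35690 in AIN_VdrKO, 10950 to 52110 in AINlowVitD, 16170 to 68540 in NWD1VitD, 10660 to 19900 in NWD1Ca, 3080 to 3440 in NWD2, 3713 to 11850 in NWD1 and 4593 to 6533 in AIN. Of these 7, 2 were called higher in AINlowVitD, 1 in AIN_VdrKO, 1 in NWD1Ca and 3 in NWD1VitD against their control diets, with median log2 fold changes of 0.45, 1.94, -0.91 and 0.81, and none was called lower. For 7 enterocyte markers the sums were 6648 to 11820 in AIN_VdrKO, 17440 to 60740 in AINlowVitD, 25800 to 48410 in NWD1VitD, 17910 to 34280 in NWD1Ca, 1746 to 13970 in NWD2, 1427 to 2367 in NWD1 and 9594 to 16920 in AIN. Of these, 1 was called higher in AINlowVitD, none in AIN_VdrKO, 4 in NWD1Ca and 6 in NWD1VitD. Their median log2 fold changes were 0.26, -0.69, 2.54 and 3.05 in that order. The sums of 8 stem cell markers, Lgr5 among them, were 3381 to 6204 in AIN_VdrKO, 854 to 2470 in AINlowVitD, 936 to 2863 in NWD1VitD, 1174 to 1770 in NWD1Ca, 2819 to 10320 in NWD2, 6277 to 9132 in NWD1 and 2107 to 3999 in AIN. Of these, 1 was called higher in AIN_VdrKO, none was called in AINlowVitD, and 3 were called lower in NWD1Ca and 5 in NWD1VitD. The stem cell medians were 0.49 in AIN_VdrKO, -0.32 in AINlowVitD, -1.1 in NWD1Ca and -1.53 in NWD1VitD. Olfm4 made up most of the stem cell sums, with 599, 1865 and 1083 CPM in AINlowVitD and 1792, 3162 and 3558 CPM in AIN. Of 6 enteroendocrine markers 3 were higher in each of AINlowVitD, NWD1Ca and NWD1VitD, and of 5 tuft cell markers 4 were lower in NWD1Ca. Among plasma cell markers, Tnfrsf17 was at or under 0.0395 CPM in all 21 libraries, while Igj reached 5.70 CPM in AIN_VdrKO 2 and Sdc1, which epithelial cells express too, lay between 37.9 and 116 CPM. Of the 2 plasma cell markers that passed the filter, 1 was lower in AINlowVitD than in AIN and both were lower in NWD1VitD than in NWD1. The part of all these cells in the results on members was not tested.

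Promoter sequence was looked at because members of this response share known control elements. The ER stress response element, written CCAAT, 9 bases of any kind, then CCACG, is the site at which ATF6 and XBP1 are known to act. RefSeq promoter windows (build GRCm38.p6, 250 bases before to 50 after the start) were found for 32 of the 39 members. Atf6, Ern2, Hyou1, Manf, Derl1, Sec61a1 and Ssr2 had none. Searched on both strands, the element was in the windows of 9 of those 32 members (28.1%), against 37 of 27025 genes in the table (0.137%). The shorter XBP1 core GCCACGT was in 6 (18.8%), against 2.95% of the genes in the table, no site of one motif overlapped a site of the other, and Derl3 alone among members held both. The window of Hspa5, which encodes the main ER chaperone BiP, follows on its own strand from chr2:34771840-34772139, plus strand, with both parts of its 1 full match in capitals.
Hspa5: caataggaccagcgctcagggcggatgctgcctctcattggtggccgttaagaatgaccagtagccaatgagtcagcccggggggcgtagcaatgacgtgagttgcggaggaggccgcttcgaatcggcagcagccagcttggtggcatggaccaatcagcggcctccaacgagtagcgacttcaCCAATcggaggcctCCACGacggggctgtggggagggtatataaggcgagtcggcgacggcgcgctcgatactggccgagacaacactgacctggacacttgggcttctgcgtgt
The matches of the other members are shown with 10 bases on either side, on the strand that reads CCAAT first, with both parts of the element in capitals, because they include genes called higher, genes called lower and genes not called.
Hsp90b1, chr10:86705628-86705666, minus strand: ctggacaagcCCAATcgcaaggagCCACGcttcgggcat
Hsp90b1, chr10:86705523-86705561, plus strand: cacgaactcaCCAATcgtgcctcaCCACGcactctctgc
Pdia6, chr12:17266481-17266519, plus strand: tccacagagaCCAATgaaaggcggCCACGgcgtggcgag
Calr, chr8:84847065-84847103, plus strand: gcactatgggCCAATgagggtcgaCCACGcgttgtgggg
Canx, chr11:50325790-50325828, minus strand: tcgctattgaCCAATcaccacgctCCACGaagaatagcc
Dnajc3, chr14:118937817-118937855, plus strand: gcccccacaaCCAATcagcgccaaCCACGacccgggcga
Creld2, chr15:88819510-88819548, minus strand: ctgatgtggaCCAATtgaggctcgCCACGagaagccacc
Syvn1, chr19:6046522-6046560, plus strand: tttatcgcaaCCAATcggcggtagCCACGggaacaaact
Derl3, chr10:75893232-75893270, minus strand: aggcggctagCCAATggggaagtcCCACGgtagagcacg
A match in letters is not a measured binding site. For contrast, the windows of Pdia3, Pdia4 and Sec61b held neither motif, while Tmed9 held the XBP1 core at chr13:55593121-55593147, minus strand, capitals marking the core.
Tmed9: agactgccgaGCCACGTagcccagcgg

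Per unit of gene length, the members spanned a wide range of levels. TPM, which corrects for gene length as well as library size, sets genes of a library side by side, and P4hb, a disulfide isomerase, led AIN libraries at 1779 ± 592 TPM (SD, n = 3). Ssr2, a subunit of the translocon-associated complex, averaged 814 ± 47.0 TPM there, the lectin chaperone Calr 783 ± 221 TPM and Hspa5 780 ± 410 TPM, so these neighbours did not differ beyond their spread. The sensors Atf6 and Ern1 were low, at 16.1 ± 13 TPM and 3.55 ± 1.26 TPM, while Ern2, which encodes another form of IRE1, averaged 42.1 ± 18 TPM. At the bottom stood Derl3, a degradation factor typical of professional secretory cells, at 1.95 ± 0.652 TPM, and the ATF4 target Chac1 at 0.921 ± 0.628 TPM. In NWD1Ca libraries the order opened instead with Sec61b, a small subunit of the protein-conducting channel, at 743 ± 25.9 TPM, ahead of P4hb at 365 ± 63.7 TPM. Pdia3, a disulfide isomerase that works with calreticulin and calnexin, stood at rank 19 in NWD1Ca with 37.6 ± 7.06 TPM and at rank 5 in AIN with 571 ± 222 TPM. Tmed9, a cargo receptor between ER and Golgi, stood at rank 30 in NWD1Ca with 12.6 ± 1.83 TPM and at rank 17 in AIN with 155 ± 27.7 TPM. The sum over the 39 members was 2958, 2782 and 3440 TPM in AINlowVitD, 2999, 3113 and 2742 in NWD1VitD and 3165, 3383 and 2974 in NWD1Ca. It was 3673, 4670 and 6725 TPM in AIN_VdrKO, 9431, 8783 and 9803 in NWD2, 6675, 8604 and 12170 in NWD1 and 6637, 8752 and 11090 in AIN. Differences in TPM between groups, of sums and of single members, include an offset shared by all tested genes. Against the CPM scale its median was -0.96 log2 units for AINlowVitD against AIN. It was -1.15 for NWD1Ca and -1.38 for NWD1VitD, each against NWD1. Of all gene counts, the members took 0.644%, 0.641% and 0.72% in AINlowVitD and 1.08%, 1.43% and 1.53% in AIN.

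**Figure D1:**
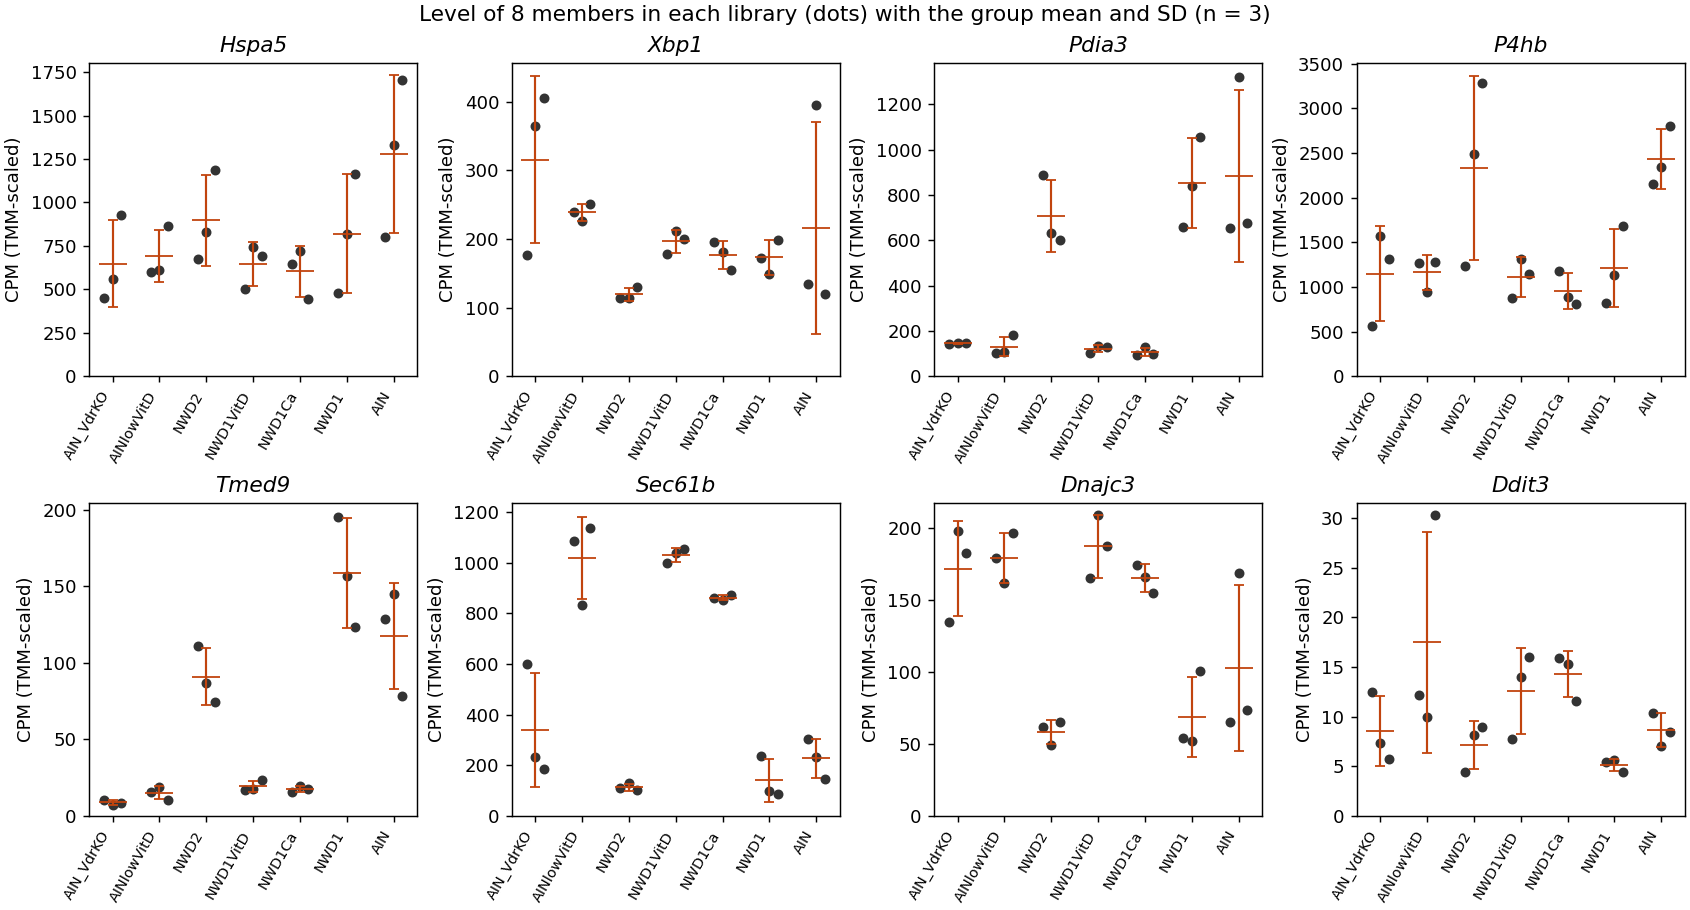
Each panel plots 1 member: the y axis is its level in CPM (TMM-scaled) and the x axis the 7 groups, with a dot per library and the mean ± SD of the 3 libraries in orange. Pdia3 and Tmed9 are low and Sec61b is high in AINlowVitD, NWD1VitD and NWD1Ca. Within each tested comparison the groups overlap in Hspa5. They also overlap in Xbp1, except in NWD2 against NWD1, where all NWD2 libraries are lower.

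Changes were tested with the quasi-likelihood F test of edgeR on counts with TMM scaling, and every adjusted p given here is its Benjamini-Hochberg value over the 16050 genes unless another tool is named. A gene is called when that value is under 0.05, log2 fold changes carry their standard error (SE), and CPM are TMM-scaled. Fits that left out 1 library did so for each library of the compared groups in turn. AIN 3 and AINlowVitD 3 were the only male libraries of their groups, and NWD1 3, NWD2 3 and NWD1VitD 2 the only female ones. A fit without 1 of them left its group with 1 sex, and the sex term then rested on the other groups. The p-values measure the spread between these libraries.

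AINlowVitD against AIN asks what lowering vitamin D in the control diet does. Of the 39 members 2 rose and 14 fell (41.0%), while 31.3% of all tested genes were called, 15.1% higher and 16.3% lower. All 6 lectin chaperones and disulfide isomerases fell, and so did 4 of 7 translocon and early secretory genes. Among sensors and transcription factors Ern2 alone fell and none rose. With a correction for GC content and length, chosen after seeing the data, edgeR no longer called Calr (adjusted p = 0.0689), P4hb (adjusted p = 0.0842) and Ern2 (adjusted p = 0.0692). The same correction added Ssr2 (adjusted p = 0.000698), which fell, and Ssr4 (adjusted p = 0.034), which rose. The largest falls were of Tmed9, Pdia3, Pdia4 and Hyou1, and the rises were of Sec61b and Dnajc3. The members' median log2 fold change was -0.41, against -0.10 for all tested genes. Without AIN 3 the count fell to 8 members, without AINlowVitD 1 likewise to 8. On log2(TPM + 1) with limma, 1 member was higher and 29 were lower, but there 4.57% of all genes were higher and 45.9% lower, with a median offset of all genes from the CPM scale of -0.96.

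NWD1Ca against NWD1 sets added calcium against the same Western-style diet. 5 members rose and 10 fell (38.5%), while 30.5% of all tested genes were called, 15.6% higher and 14.9% lower. Sec61b, Ddit3, Ssr4, Edem1 and Dnajc3 rose. Tmed9, Pdia3, Herpud1 and Sec61a1 had the largest falls, followed by Ern2, Syvn1, Pdia4, Hyou1, Edem2 and Pdia6. The median of the members was -0.31, against -0.04 for all tested genes. Without NWD1 3 there were 6 calls, and without NWD1Ca 1 there were 9. The fit without NWD1 3 sets male NWD1 libraries against female NWD1Ca libraries. With limma on log2(TPM + 1), where the offset of all genes was -1.15, 1 member was higher and 31 were lower, beside 5.15% and 51.5% of all genes.

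NWD1VitD against NWD1 sets added vitamin D against that diet and uses the same 3 NWD1 libraries. 5 members rose and 10 fell (38.5%), close to the 40.5% of all tested genes that were called, 19.9% higher and 20.6% lower. Sec61b, Edem1, Dnajc3, Ssr4 and Ddit3 rose. Tmed9, Pdia3, Syvn1 and Pdia4 had the largest falls, followed by Sec61a1, Herpud1, Ern2, Edem2, Asns and Pdia6. The median of the members was -0.17, against -0.03 for all tested genes. Without NWD1 3 there were 9 calls. By limma, 1 member was higher and 32 were lower on log2(TPM + 1), with an offset of all genes of -1.38, beside 4.36% and 60.3% of all genes.

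AIN_VdrKO against AIN sets the labelled receptor knockout against no labelled knockout on the control diet, and uses the same AIN libraries as AINlowVitD. The knockout and the position on the first principal component cannot be told apart here. 1 member rose and 8 fell (23.1%), while 12.5% of all tested genes were called, 7.44% higher and 5.09% lower. Dnajc3 rose. Tmed9, Pdia3, Hyou1 and Ern2 had the largest falls, followed by Sec61a1, Pdia4, Edem2 and Calr. The median of the members was -0.47, against -0.01 for all tested genes. On log2(TPM + 1) it was -0.65, where the offset of all genes was -0.23. With limma on that scale, 0 members were higher and 6 were lower, beside 642 and 708 of all genes. Limma did not call Dnajc3 (0.83, limma adjusted p = 0.206) or Hyou1 (-1.25, limma adjusted p = 0.15). Nor did it call Pdia4 (-1.33, limma adjusted p = 0.0825) or Sec61a1 (-1.38, limma adjusted p = 0.0856). These members kept their directions. The fit without AIN 3 sets female AIN libraries against male AIN_VdrKO libraries. The count was 2 without AIN 3, 4 without AIN_VdrKO 1, 5 without AIN_VdrKO 2 and 5 without AIN_VdrKO 3. It was 3 when the libraries of these groups alone were fitted with no sex term, a setting in which the all-male AIN_VdrKO libraries and the mixed AIN libraries share no other group. The fit without AIN 1, AIN 2 and NWD1 1 left AIN 3 as the only AIN library, so its count is not given.

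**Figure D2:**
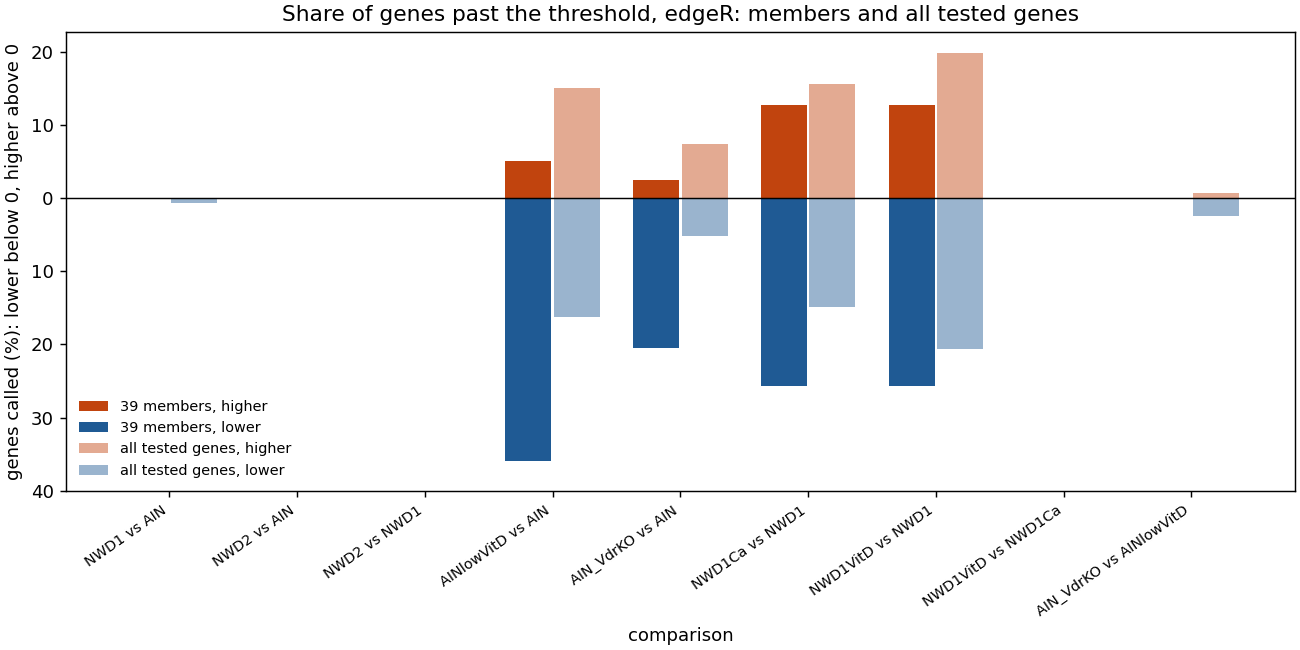
Bars give the percentage of genes called higher (above 0) or lower (below 0) by edgeR in each of the 9 comparisons, in full colour for the 39 members and in pale colour for the 16050 tested genes. In AINlowVitD against AIN, 14 of 39 members were lower, against 16.3% of all genes, and in 5 comparisons no member was called.

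The calls in AINlowVitD against AIN and in NWD1Ca against NWD1 share no library. Of the 16 and 15 members called in them, 11 were called in both and in 1 direction, which is 68.8% of the calls in AINlowVitD and 73.3% of those in NWD1Ca. Over all tested genes the same shares were 71.2% and 73%, so the members' shares were near the background. The shared members were Ern2, Hyou1, Dnajc3, Pdia3, Pdia4, Pdia6, Syvn1, Edem2, Sec61a1, Sec61b and Tmed9. AINlowVitD against AIN and NWD1VitD against NWD1 shared 10 calls in 1 direction, which is 62.5% and 66.7% of the members called and 80.9% and 62.5% of all genes called. AIN_VdrKO against AIN and NWD1Ca against NWD1 shared 8, which is 88.9% of the 9 members called in AIN_VdrKO and 53.3% of the 15 called in NWD1Ca, against 57.4% and 23.6% of all genes called. AINlowVitD and NWD1Ca libraries lie in 1 block on the first principal component and AIN and NWD1 libraries in the other, so the block and the diets cannot be told apart in what is shared.

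**Figure D3:**
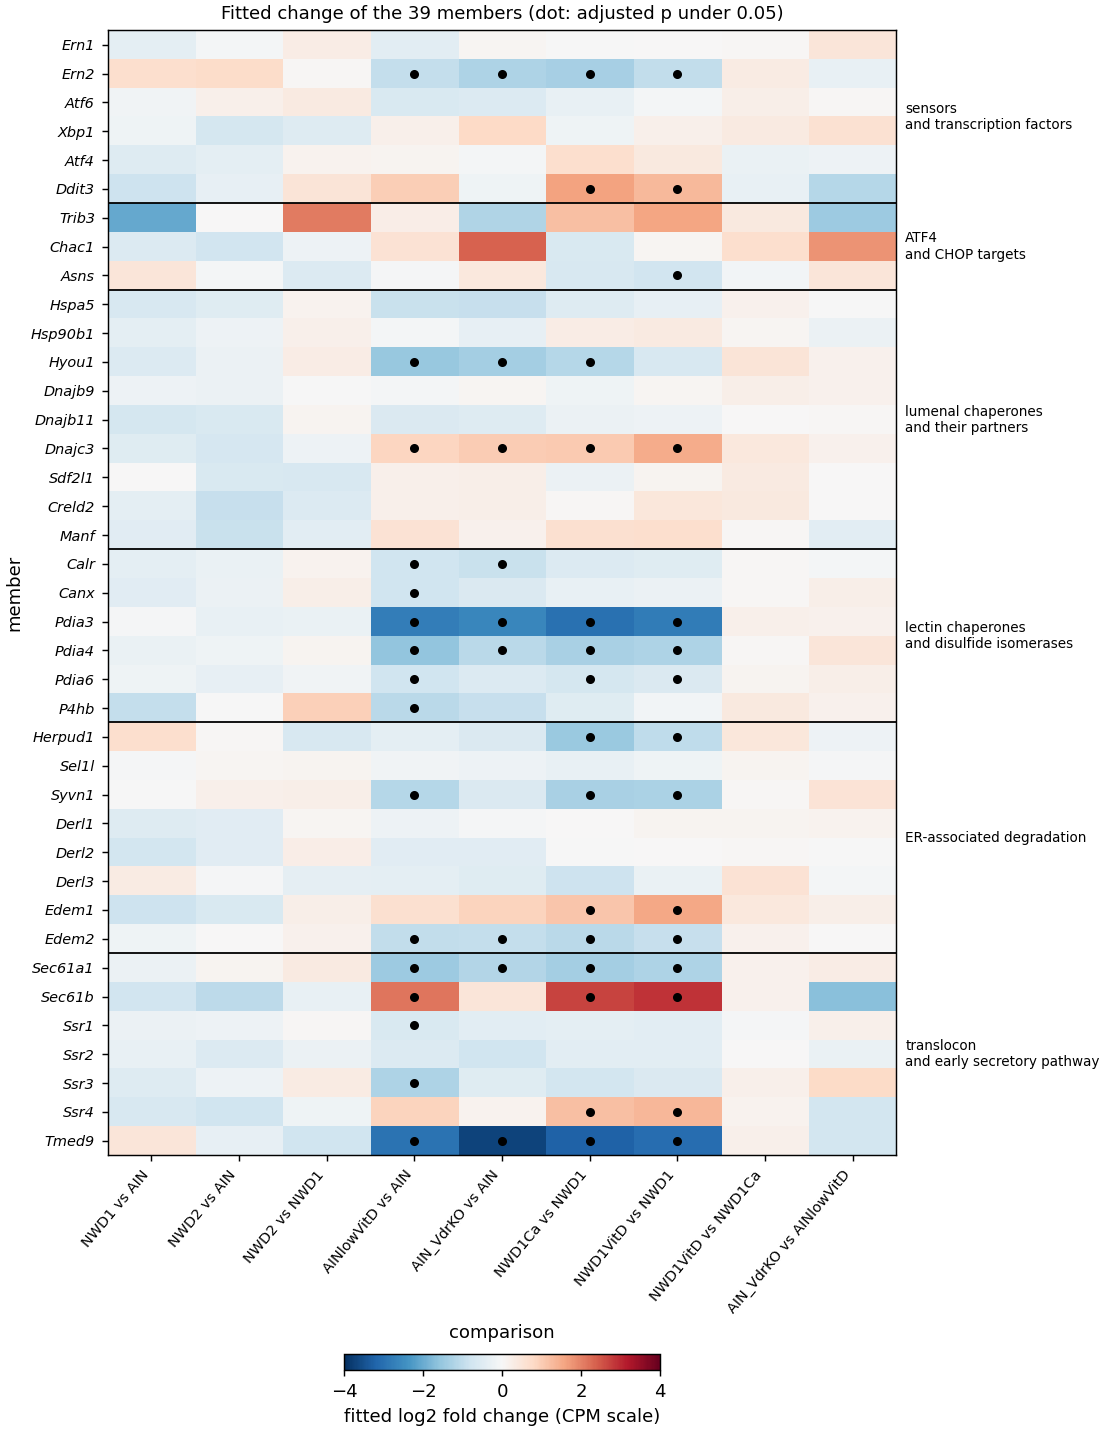
Rows are the 39 members in 6 roles, columns the 9 comparisons; colour gives the fitted log2 fold change on the CPM scale and a black dot an adjusted p under 0.05 (edgeR). Tmed9 and Pdia3 are dark blue in 4 columns, with log2 fold changes of -2.60 or below, and Sec61b is red in 3 of them.

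Of the 6 sensors and transcription factors, 1 was called in AINlowVitD (16.7%) and 1 in AIN_VdrKO (16.7%) against AIN, and 2 each in NWD1Ca and NWD1VitD against NWD1 (33.3%). These shares stand beside 31.3%, 12.5%, 30.5% and 40.5% of all tested genes called in AINlowVitD, AIN_VdrKO, NWD1Ca and NWD1VitD. Ern2 encodes IRE1 beta, the form of the sensor found in gut secretory cells. It had 33.1, 31.4 and 29.3 CPM in AINlowVitD and 18.98, 29.8 and 21.2 CPM in AIN_VdrKO, against 52.3, 50.4 and 74.8 CPM in AIN. The groups did not overlap, and the log2 fold changes were -0.94 ± 0.34 (SE, adjusted p = 0.0448) and -1.24 ± 0.37 (SE, adjusted p = 0.0307). It also fell in NWD1Ca, with 40.1, 44.0 and 35.4 CPM, and in NWD1VitD, with 24.5, 47.1 and 66.2 CPM, against 81.4, 58.2 and 140.4 CPM in NWD1. NWD1VitD overlapped NWD1, and the log2 fold changes were -1.32 ± 0.36 (SE, adjusted p = 0.0111) and -1.0 ± 0.35 (SE, adjusted p = 0.0277). The call in AIN_VdrKO ended without AIN 3 (-0.77, adjusted p = 0.324), AIN_VdrKO 1 (-1.11, adjusted p = 0.102) or AIN_VdrKO 3 (-1.18, adjusted p = 0.0805). The call in AINlowVitD ended without any of AIN 1, AIN 3 and the 3 AINlowVitD libraries in turn (adjusted p 0.0841 to 0.268). In NWD1Ca it ended without NWD1 3 (-0.78, adjusted p = 0.21), and in NWD1VitD without NWD1 3 (-0.60, adjusted p = 0.206), NWD1VitD 1 (-0.72, adjusted p = 0.122) or NWD1VitD 2 (-0.95, adjusted p = 0.0956).

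Ddit3, whose product CHOP is tied to prolonged stress, was low throughout. It had 7.75, 13.98 and 16.01 CPM in NWD1VitD and 15.9, 15.3 and 11.6 CPM in NWD1Ca, against 5.40, 5.57 and 4.41 CPM in NWD1, so that each NWD1VitD and NWD1Ca library was above each NWD1 library. Its log2 fold change was 1.62 ± 0.45 (SE, adjusted p = 0.0114) in NWD1Ca, and 0.24 on log2(TPM + 1). It was 1.31 ± 0.41 (SE, adjusted p = 0.0154) in NWD1VitD, and turned to -0.32 on log2(TPM + 1). Leaving out NWD1 3 ended both calls (1.55, adjusted p = 0.0655, and 1.26, adjusted p = 0.0531), and in NWD1VitD so did leaving out NWD1VitD 2 (1.11, adjusted p = 0.0761) or NWD1VitD 3 (1.13, adjusted p = 0.0719). In AINlowVitD it had 12.2, 9.99 and 30.3 CPM, against 10.4, 7.00 and 8.43 CPM in AIN, where AINlowVitD 3 stood apart. The difference of 0.98 ± 0.41 (SE, adjusted p = 0.0747) missed the threshold and was -0.26 on log2(TPM + 1), and DESeq2 called it (1.03, adjusted p = 0.0461). The call was made without AIN 1 (1.34, adjusted p = 0.0463) and without AINlowVitD 2 (1.26, adjusted p = 0.0424). AIN_VdrKO had 12.5, 7.31 and 5.72 CPM and a log2 fold change of -0.16 ± 0.44 (SE, adjusted p = 0.848) against AIN.

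Xbp1, the factor downstream of IRE1, was not called in any of the 9 comparisons by edgeR. It had 177, 365 and 406 CPM in AIN_VdrKO and 239.5, 227 and 252 CPM in AINlowVitD, against 135, 395 and 119 CPM in AIN. AIN 2 was high and the other two AIN libraries were below all AIN_VdrKO and AINlowVitD libraries. The log2 fold change in AIN_VdrKO was 0.80 ± 0.40 (SE, adjusted p = 0.198), and 1.39 (adjusted p = 0.00485) without AIN 2. That in AINlowVitD was 0.20 ± 0.35 (SE, adjusted p = 0.699), 0.89 (adjusted p = 0.0289) without AIN 2, and -0.79 (limma adjusted p = 0.112) on log2(TPM + 1) over all libraries. Xbp1 had 179, 212 and 200.3 CPM in NWD1VitD and 195, 181 and 154 CPM in NWD1Ca, against 173, 149 and 199 CPM in NWD1, with log2 fold changes of 0.19 ± 0.35 (SE, adjusted p = 0.687) and -0.18 ± 0.38 (SE, adjusted p = 0.754). On log2(TPM + 1) these were -1.39 (limma adjusted p = 0.00586) and -1.47 (limma adjusted p = 0.0096), beside offsets of all genes of -1.38 and -1.15.

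Atf4 encodes the factor that PERK brings up mainly through translation. It had 137, 165 and 118 CPM in NWD1Ca and 102, 138 and 126 CPM in NWD1VitD, against 113, 85.6 and 80.3 CPM in NWD1. All NWD1Ca libraries were above all NWD1 libraries, yet the log2 fold change of 0.68 ± 0.26 (SE, adjusted p = 0.0525) missed the threshold, and without NWD1 1 it was 0.79 (adjusted p = 0.0295). DESeq2 also called it (0.72, adjusted p = 0.0184), and on log2(TPM + 1) it was -0.63 (limma adjusted p = 0.0869). In NWD1VitD it was 0.40 ± 0.23 (SE, adjusted p = 0.176). In AINlowVitD it was 0.11 ± 0.23 (SE, adjusted p = 0.758) and in AIN_VdrKO -0.09 ± 0.25 (SE, adjusted p = 0.851) against AIN. On log2(TPM + 1) Atf4 was lower in NWD1VitD than in NWD1 (-1.19, limma adjusted p = 0.00128) and lower in AINlowVitD than in AIN (-1.06, limma adjusted p = 0.00469), and both values are close to the offset of all genes. The remaining sensors, Atf6 and Ern1, ran between 27.0 and 92.9 CPM and between 6.50 and 15.9 CPM over all libraries and were not called by edgeR. With limma on log2(TPM + 1), both were called lower in AINlowVitD (-1.39 and -1.02), NWD1Ca (-1.4 and -0.93) and NWD1VitD (-1.44 and -1.04), beside the offsets of all genes.

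Among the 3 targets of ATF4 and CHOP, edgeR with the filter on low counts called only Asns, which makes asparagine, and only in NWD1VitD against NWD1. It had 118, 90.5 and 86.1 CPM in NWD1VitD, against 187, 178 and 135 CPM in NWD1, with a log2 fold change of -0.76 ± 0.28 (SE, adjusted p = 0.0357). The groups did not overlap. The call ended without NWD1 1 (-0.69, adjusted p = 0.0784), NWD1 2 (-0.73, adjusted p = 0.0846), NWD1VitD 2 (-0.75, adjusted p = 0.0978) or NWD1VitD 3 (-0.66, adjusted p = 0.13). The direction of Asns is opposite to that of Ddit3 in the same comparison. Chac1, which degrades glutathione, had 2.71, 1.61 and 6.41 CPM in AIN_VdrKO, against 0.239, 0.856 and 0.986 CPM in AIN, all AIN_VdrKO libraries being higher, but 2.36 ± 1.04 (SE, adjusted p = 0.147) missed the threshold at these low counts. Trib3, a pseudokinase that dampens the response, varied between 0.565 and 8.43 CPM over all libraries. With no filter on low counts, edgeR called Trib3 lower in NWD1 than in AIN (-2.06, adjusted p = 0.001) and higher in NWD2 than in NWD1 (2.1, adjusted p = 0.000562). With the filter it called neither (-2.06, adjusted p = 0.213, and 2.08, adjusted p = 0.313), nor did DESeq2 (adjusted p = 0.0867 and 0.131). Trib3 had 1.79, 1.16 and 0.675 CPM in NWD1, so few reads underlie these values.

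Of the 9 lumenal chaperones and their partners, edgeR called Hyou1 and Dnajc3, in opposite directions. The share called was 22.2% in each of AINlowVitD, AIN_VdrKO and NWD1Ca and 11.1% in NWD1VitD. Over all tested genes it was 31.3%, 12.5%, 30.5% and 40.5% in that order. Hyou1 encodes an exchange factor and large chaperone that partners BiP. It had 22.9, 20.2 and 19.9 CPM in AINlowVitD and 17.0, 23.0 and 23.4 CPM in AIN_VdrKO, against 26.9, 54.1 and 93.7 CPM in AIN. The log2 fold changes were -1.52 ± 0.39 (SE, adjusted p = 0.0073) and -1.35 ± 0.40 (SE, adjusted p = 0.0315), with no overlap of groups. Without AIN 3, the highest AIN library, the values were -0.72 (adjusted p = 0.123) and -0.31 (adjusted p = 0.706). In AIN_VdrKO the call also ended without AIN_VdrKO 1 (adjusted p = 0.108), AIN_VdrKO 2 (adjusted p = 0.0599) or AIN_VdrKO 3 (adjusted p = 0.0561). In NWD1Ca, Hyou1 had 18.5, 23.4 and 17.9 CPM, against 23.3, 30.1 and 68.5 CPM in NWD1, and its log2 fold change of -1.14 ± 0.40 (SE, adjusted p = 0.0384) became -0.38 (adjusted p = 0.582) without NWD1 3, and ended also without any of the 3 NWD1Ca libraries.

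Dnajc3 encodes a co-chaperone of BiP that also restrains PERK, and its promoter carries the element printed above. It had 135, 198 and 183 CPM in AIN_VdrKO, 179, 162 and 197 CPM in AINlowVitD, 165, 209 and 188 CPM in NWD1VitD and 175, 166 and 155 CPM in NWD1Ca. It had 53.9, 51.9 and 101 CPM in NWD1 and 65.2, 169 and 73.8 CPM in AIN, and AIN 2 alone reached the level of the higher groups. The log2 fold change was 1.49 ± 0.30 (SE, adjusted p = 0.000937) in NWD1VitD, kept in each fit that left out 1 library, and 1.06 ± 0.32 (SE, adjusted p = 0.0177) in NWD1Ca. These turned to -0.09 and -0.21 on log2(TPM + 1). Against AIN it was 0.85 ± 0.30 (SE, adjusted p = 0.0356) in AINlowVitD, which turned to -0.23 on log2(TPM + 1), and 1.02 ± 0.33 (SE, adjusted p = 0.0484) in AIN_VdrKO. The call in AINlowVitD ended without AIN 1 (0.76, adjusted p = 0.0566), AIN 3 (0.73, adjusted p = 0.145), AINlowVitD 1 (0.93, adjusted p = 0.0619) or AINlowVitD 3 (0.58, adjusted p = 0.208). The call in AIN_VdrKO ended without AIN 1 (0.86, adjusted p = 0.0808), AIN 3 (0.86, adjusted p = 0.226), AIN_VdrKO 2 (0.90, adjusted p = 0.114) or AIN_VdrKO 3 (0.97, adjusted p = 0.0911). The call in NWD1Ca ended without NWD1 2 (0.97, adjusted p = 0.054) or NWD1Ca 1 (1.01, adjusted p = 0.0512).

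Hspa5, the chaperone most often taken as the readout of the response, was not called by edgeR in any comparison as fitted here. With the replicate number added as a block, edgeR called Hspa5 lower in AINlowVitD than in AIN (-0.85, adjusted p = 0.0402). Hspa5 had 449.6, 559.8 and 928 CPM in AIN_VdrKO and 601, 609 and 864 CPM in AINlowVitD, against 798, 1332 and 1706 CPM in AIN, and the groups overlapped. The log2 fold changes were -0.92 ± 0.40 (SE, adjusted p = 0.14) and -0.89 ± 0.38 (SE, adjusted p = 0.08). In NWD1VitD it had 499, 743 and 693 CPM and in NWD1Ca 646, 721 and 442 CPM, against 479, 817 and 1163 CPM in NWD1, with log2 fold changes of -0.33 ± 0.38 (SE, adjusted p = 0.5) and -0.51 ± 0.40 (SE, adjusted p = 0.344). AIN 1, AIN 2 and NWD1 1 lay nearer 0 than the other libraries of AIN, NWD1 and NWD2 on the first principal component. Without these 3 libraries the values of Hspa5 in AINlowVitD and AIN_VdrKO were -1.42 and -1.48. AIN 3 was then the only AIN library and assumed to vary like the other groups. On log2(TPM + 1), Hspa5 was called lower in AINlowVitD (-2.0), NWD1Ca (-1.78) and NWD1VitD (-1.87), limma adjusted p between 0.00219 and 0.00783. Hsp90b1 (GRP94), Dnajb9, Dnajb11, Sdf2l1, Creld2 and Manf, which are BiP co-factors or secreted folding factors apart from the chaperone Hsp90b1, were not called by edgeR in these 4 comparisons. With limma on log2(TPM + 1), all 6 were called lower in NWD1Ca and NWD1VitD, and Hsp90b1, Dnajb9, Dnajb11 and Sdf2l1 lower in AINlowVitD, beside the offsets of all genes.

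The lectin chaperones and disulfide isomerases gave calls in 1 direction. All 6 were lower in AINlowVitD than in AIN, and 3 each (50%) in AIN_VdrKO, NWD1Ca and NWD1VitD against their control diets. Of all tested genes, 31.3% were called in AINlowVitD, 12.5% in AIN_VdrKO, 30.5% in NWD1Ca and 40.5% in NWD1VitD. Pdia3, which pairs with both lectin chaperones to form disulfide bonds in glycoproteins, had 105, 107 and 181 CPM in AINlowVitD and 141, 148 and 145 CPM in AIN_VdrKO, against 655, 1321 and 677 CPM in AIN. It had 105, 134 and 128 CPM in NWD1VitD and 94.7, 128 and 99.3 CPM in NWD1Ca, against 659.6, 838 and 1058 CPM in NWD1, with 889, 631 and 603 CPM in NWD2. Every library of the low groups was below every library of NWD2, NWD1 and AIN. The log2 fold changes were -2.76 ± 0.33 (SE, adjusted p = 2.72e-05), -2.60 ± 0.35 (SE, adjusted p = 0.000146), -3.00 ± 0.35 (SE, adjusted p = 2.61e-05) and -2.80 ± 0.33 (SE, adjusted p = 1.62e-05) in AINlowVitD, AIN_VdrKO, NWD1Ca and NWD1VitD in that order. All 4 calls held in each fit that left out 1 library. The AIN_VdrKO libraries differed among themselves on the first principal component and had nearly equal Pdia3 levels. Any link between that component and Pdia3 or other members was not tested.

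Pdia4, a further isomerase, had 116, 120.2 and 118 CPM in AINlowVitD and 106, 163 and 212 CPM in AIN_VdrKO, against 246, 367 and 436 CPM in AIN. Its log2 fold changes were -1.57 ± 0.30 (SE, adjusted p = 0.00105) and -1.09 ± 0.31 (SE, adjusted p = 0.0285), and the AIN_VdrKO call ended without AIN 3 (-0.73, adjusted p = 0.274), AIN_VdrKO 1 (-0.86, adjusted p = 0.102) or AIN_VdrKO 2 (-1.1, adjusted p = 0.0607). It had 124, 131 and 106 CPM in NWD1VitD and 117, 145 and 93.0 CPM in NWD1Ca, against 186, 298 and 377 CPM in NWD1. There the log2 fold changes were -1.25 ± 0.30 (SE, adjusted p = 0.00299) and -1.31 ± 0.32 (SE, adjusted p = 0.00487), the NWD1Ca call ending without NWD1 3 (-0.95, adjusted p = 0.0887). Of the lectin chaperones, which hold glycoproteins until they fold, Calr had 549, 540.3 and 765 CPM in AINlowVitD and 586, 656 and 531 CPM in AIN_VdrKO, against 958, 1119 and 1176 CPM in AIN. Its log2 fold changes were -0.81 ± 0.24 (SE, adjusted p = 0.0157) and -0.90 ± 0.26 (SE, adjusted p = 0.0291). Its membrane-bound relative Canx fell in AINlowVitD alone among the calls (-0.79 ± 0.27 SE, adjusted p = 0.0341), and Pdia6 fell in AINlowVitD, NWD1Ca and NWD1VitD with log2 fold changes of -0.79, -0.69 and -0.58. The call of Canx ended without AIN 3 (-0.43, adjusted p = 0.273) or any of the 3 AINlowVitD libraries. That of Calr ended without AIN 3 (-0.75, adjusted p = 0.0556), AINlowVitD 1 (-0.74, adjusted p = 0.0736) or AINlowVitD 2 (-0.73, adjusted p = 0.067) in AINlowVitD and without AIN 3 (-0.81, adjusted p = 0.139) or AIN_VdrKO 3 (-0.82, adjusted p = 0.0715) in AIN_VdrKO. That of Pdia6 ended without AINlowVitD 1 (-0.75, adjusted p = 0.0559) in AINlowVitD, without NWD1 2, NWD1 3, NWD1Ca 1 or NWD1Ca 3 in NWD1Ca, and without any of 5 libraries in NWD1VitD, NWD1 1 being the exception. Calr, Canx and Pdia6, which fell, and Syvn1, which also fell, carry the same promoter element as Dnajc3, which rose, and as Hspa5, Hsp90b1, Creld2 and Derl3, which edgeR did not call.

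P4hb, an isomerase and the most abundant member per length in AIN, had 1267, 938 and 1281 CPM in AINlowVitD and 819, 1129 and 1681 CPM in NWD1, against 2148, 2348 and 2802 CPM in AIN. Neither group reached the lowest AIN library. Nor did AIN_VdrKO, with 559, 1574 and 1316 CPM, where P4hb was not called (-0.91 ± 0.41 SE, adjusted p = 0.154). P4hb averaged 956 CPM in NWD1Ca, 1113 CPM in NWD1VitD and 2337 CPM in NWD2. The log2 fold change was -1.07 ± 0.39 (SE, adjusted p = 0.0414) in AINlowVitD and -0.96 ± 0.39 (SE, adjusted p = 0.234) in NWD1, where it was not called. The call in AINlowVitD ended without any 1 of the 6 libraries (adjusted p 0.0505 to 0.209). The sum of enterocyte markers was 1427 to 2367 CPM in NWD1 and 17440 to 60740 CPM in AINlowVitD, against 9594 to 16920 CPM in AIN. Of the 7 markers, 1 was lower in NWD1 than in AIN and 1 was higher in AINlowVitD than in AIN. Their median log2 fold changes were -2.58 and 0.26. The part of enterocytes in these values was not tested.

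Of the 8 genes of ER-associated degradation, 25% were called in AINlowVitD, 12.5% in AIN_VdrKO, 50% in NWD1Ca and 50% in NWD1VitD, and the calls went both ways. Among all tested genes 31.3%, 12.5%, 30.5% and 40.5% were called in that order. Edem2, a lectin that marks misfolded glycoproteins, had 83.1, 64.2 and 62.9 CPM in AINlowVitD and 46.5, 80.6 and 70.1 CPM in AIN_VdrKO, against 129, 133 and 149 CPM in AIN. It had 55.6, 70.6 and 63.2 CPM in NWD1VitD and 62.4, 68.3 and 48.8 CPM in NWD1Ca, against 123, 95.0 and 138 CPM in NWD1. The groups did not overlap in any of the 4 comparisons, and its log2 fold changes lay between -1.09 and -0.91. The call in AIN_VdrKO ended without AIN 3 (-0.75, adjusted p = 0.156) or AIN_VdrKO 1 (-0.76, adjusted p = 0.0585). Its relative Edem1, of the same pathway, rose in NWD1VitD (57.3, 84.0 and 92.6 CPM) and in NWD1Ca (72.9, 71.5 and 67.7 CPM), against 27.2, 14.3 and 42.0 CPM in NWD1. The log2 fold changes of Edem1 were 1.55 ± 0.34 (SE, adjusted p = 0.00165) and 1.11 ± 0.36 (SE, adjusted p = 0.0243), and turned to -0.02 and -0.14 on log2(TPM + 1). The NWD1Ca call ended without NWD1 2 (0.88, adjusted p = 0.0779), NWD1Ca 1 (1.08, adjusted p = 0.0607), NWD1Ca 2 (1.1, adjusted p = 0.0565) or NWD1Ca 3 (1.13, adjusted p = 0.0519).

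Syvn1, the ubiquitin ligase of the pathway, had 16.5, 23.4 and 26.0 CPM in NWD1VitD and 22.1, 26.8 and 17.0 CPM in NWD1Ca, against 33.9, 53.3 and 71.5 CPM in NWD1. Its log2 fold changes were -1.26 ± 0.39 (SE, adjusted p = 0.0146) and -1.31 ± 0.41 (SE, adjusted p = 0.0209), and in AINlowVitD against AIN -1.14 ± 0.39 (SE, adjusted p = 0.0313). Leaving out AIN 3 ended the call in AINlowVitD (-0.59, adjusted p = 0.306), as did leaving out AINlowVitD 1 (-1.05, adjusted p = 0.103) or AINlowVitD 2 (-1.09, adjusted p = 0.0886). The call in NWD1VitD ended without NWD1 3 (-0.97, adjusted p = 0.0865) or NWD1VitD 1 (-1.11, adjusted p = 0.0623), and that in NWD1Ca without NWD1 3 (-0.92, adjusted p = 0.208), NWD1Ca 1 (-1.32, adjusted p = 0.0555) or NWD1Ca 3 (-1.17, adjusted p = 0.0823). Herpud1, which holds the ligase complex together, had 92.8, 177 and 229.9 CPM in NWD1VitD and 126, 109 and 97.3 CPM in NWD1Ca, against 223, 482 and 323 CPM in NWD1. Its log2 fold changes were -1.03 ± 0.37 (SE, adjusted p = 0.0341) and -1.49 ± 0.40 (SE, adjusted p = 0.0103). NWD1Ca and NWD1 did not overlap and NWD1VitD and NWD1 did. The NWD1Ca call ended without NWD1 3 (-1.45, adjusted p = 0.0554), and the NWD1VitD call without NWD1 2 (-0.74, adjusted p = 0.171), NWD1 3 (-1.0, adjusted p = 0.0803), NWD1VitD 1 (-0.72, adjusted p = 0.155) or NWD1VitD 2 (-1.19, adjusted p = 0.0541). Sel1l, which tethers the ligase, and the channel candidates Derl1, Derl2 and Derl3 were not called by edgeR in these 4 comparisons. By limma on log2(TPM + 1), all of them were called lower in AINlowVitD, NWD1Ca and NWD1VitD, beside the offsets of all genes.

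On the CPM scale, translocon and early secretory genes held the largest rises (Sec61b) and the largest falls (Tmed9) among members. Of these 7 genes, 71.4% were called in AINlowVitD, 28.6% in AIN_VdrKO, 57.1% in NWD1Ca and 57.1% in NWD1VitD. For all tested genes the shares were 31.3%, 12.5%, 30.5% and 40.5% in that order. The Sec61 channel passes new proteins into the ER, and its subunits parted: Sec61b, the small beta subunit, had 1085, 833 and 1137 CPM in AINlowVitD, 999.5, 1037 and 1054 CPM in NWD1VitD and 860.1, 854 and 873 CPM in NWD1Ca, against 238, 96.1 and 86.8 CPM in NWD1 and 302, 232 and 146 CPM in AIN. All libraries of the higher groups were above all libraries of NWD1 and AIN. The log2 fold changes were 2.15 ± 0.43 (SE, adjusted p = 0.00142) in AINlowVitD, 2.89 ± 0.44 (SE, adjusted p = 0.000105) in NWD1VitD and 2.71 ± 0.49 (SE, adjusted p = 0.000759) in NWD1Ca, and 1.05, 1.43 and 1.51 on log2(TPM + 1), all called there too. These 3 calls held in each fit that left out 1 library. In AIN_VdrKO it had 598, 234 and 185 CPM, with AIN_VdrKO 1 apart from the others, and a log2 fold change of 0.49 ± 0.47 (SE, adjusted p = 0.538) against AIN.

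Sec61a1, the pore-forming alpha subunit, moved the other way. It had 233, 228 and 202 CPM in AINlowVitD and 163, 234 and 369.5 CPM in AIN_VdrKO, against 413, 497 and 892 CPM in AIN, with log2 fold changes of -1.46 ± 0.35 (SE, adjusted p = 0.00423) and -1.18 ± 0.36 (SE, adjusted p = 0.0347). The AIN_VdrKO call ended without AIN 3 (-0.43, adjusted p = 0.564), AIN_VdrKO 1 (-0.93, adjusted p = 0.126) or AIN_VdrKO 2 (-1.12, adjusted p = 0.0894). It had 191, 224 and 234 CPM in NWD1VitD and 204, 231 and 178 CPM in NWD1Ca, against 358, 433 and 734 CPM in NWD1, with log2 fold changes of -1.22 ± 0.34 (SE, adjusted p = 0.00875) and -1.37 ± 0.36 (SE, adjusted p = 0.00825), and without NWD1 3 both calls ended (-0.84, adjusted p = 0.074, and -0.87, adjusted p = 0.156). Of its exonic bases 8.16% are shared with an antisense gene in the annotation, and the kit does not mark strand.

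The translocon-associated proteins Ssr1 to Ssr4 sit beside the channel and help chosen proteins enter. Ssr1 and Ssr3 fell in AINlowVitD against AIN, with log2 fold changes of -0.61 ± 0.22 (SE, adjusted p = 0.0379) and -1.22 ± 0.29 (SE, adjusted p = 0.00438), and the call of Ssr1 ended without any 1 of the 6 libraries (adjusted p 0.0534 to 0.157). Ssr4 instead rose in NWD1VitD, with 501, 459.8 and 562 CPM, and in NWD1Ca, with 391, 342 and 456 CPM, against 338, 149 and 134 CPM in NWD1. NWD1 1 was higher than the other NWD1 libraries and just below the lowest NWD1Ca library. Its log2 fold changes were 1.33 ± 0.37 (SE, adjusted p = 0.0078) and 1.2 ± 0.41 (SE, adjusted p = 0.0327), and turned to -0.18 and -0.05 on log2(TPM + 1). The NWD1Ca call ended without NWD1 2 (1.01, adjusted p = 0.0957), NWD1 3 (0.91, adjusted p = 0.208), NWD1Ca 1 (1.2, adjusted p = 0.0654) or NWD1Ca 3 (1.08, adjusted p = 0.0943). Ssr2 was not called in any comparison by edgeR as fitted here. DESeq2 called it lower in AIN_VdrKO than in AIN (-0.80, adjusted p = 0.0457). With a correction for GC content and length, edgeR called it lower in AINlowVitD (-1.03, adjusted p = 0.000698), AIN_VdrKO (-0.85, adjusted p = 0.00962), NWD1Ca (-0.93, adjusted p = 0.00264) and NWD1VitD (-0.93, adjusted p = 0.000725). By limma on log2(TPM + 1) it was called lower in all 4 as well, at -1.68, -1.06, -1.71 and -1.97 in that order.

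Tmed9, which carries cargo between the ER and the Golgi, had the largest falls of all members. It had 15.8, 19.1 and 10.5 CPM in AINlowVitD and 10.6, 7.18 and 8.24 CPM in AIN_VdrKO, against 129, 145 and 78.4 CPM in AIN. It had 16.7, 17.7 and 23.2 CPM in NWD1VitD and 15.3, 19.4 and 17.3 CPM in NWD1Ca, against 195, 157 and 124 CPM in NWD1, with 111, 87.1 and 74.5 CPM in NWD2. The highest library of these 4 groups, NWD1VitD 3 at 23.2 CPM, lay below the lowest AIN library at 78.4 CPM and the lowest NWD2 library at 74.5 CPM. The log2 fold changes were -2.96 ± 0.30 (SE, adjusted p = 4.7e-06) in AINlowVitD, -3.70 ± 0.33 (SE, adjusted p = 4.73e-06) in AIN_VdrKO, -3.05 ± 0.30 (SE, adjusted p = 3.05e-06) in NWD1VitD and -3.25 ± 0.33 (SE, adjusted p = 5.21e-06) in NWD1Ca. These calls, too, held in each fit that left out 1 library. Tmed9 and Sec61b share no exonic base with another annotated gene, and Pdia3 shares 18 bases (0.573%) with Catsper2 on the opposite strand. Near-identical copies elsewhere in the genome were not searched for.

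**Figure D4:**
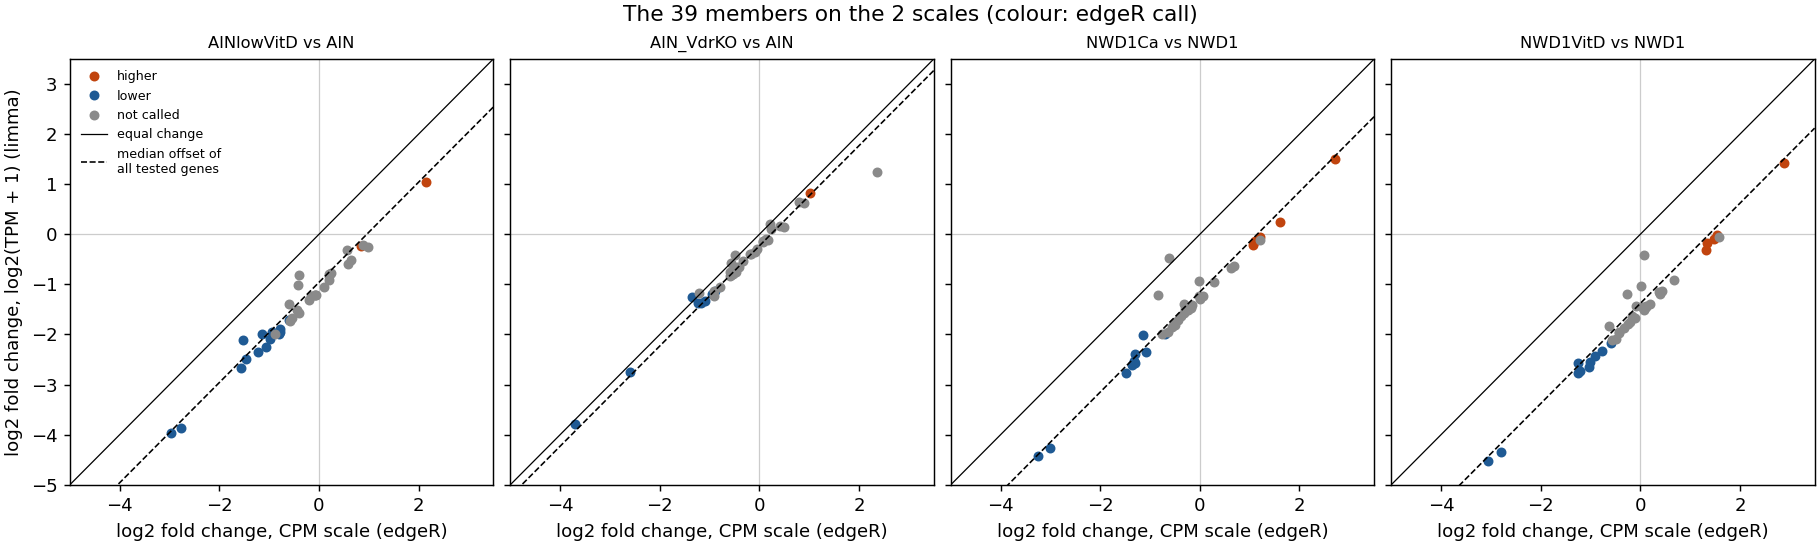
Each dot is 1 of the 39 members in 1 of 4 comparisons: the x axis is its log2 fold change in CPM (edgeR), the y axis that on log2(TPM + 1) (limma), orange and blue dots being called higher and lower by edgeR and grey dots not called. The dashed line lies below equal change by the median offset of all tested genes (-0.96 for AINlowVitD, -0.23 for AIN_VdrKO, -1.15 for NWD1Ca and -1.38 for NWD1VitD), and most members lie along it, with Sec61b above 0 on both axes and Tmed9 and Pdia3 at the lower left.

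Other genes of the pathway were counted from lists of 21, 14, 24 and 30 tested genes. Of 21 other stress signalling genes 3 rose and 3 fell in AINlowVitD against AIN, 2 rose and 1 fell in AIN_VdrKO against AIN, 4 rose and 1 fell in NWD1Ca against NWD1, and 4 rose and 4 fell in NWD1VitD against NWD1. That is 28.6%, 14.3%, 23.8% and 38.1% in that order, near the 31.3%, 12.5%, 30.5% and 40.5% of all tested genes. Cebpb, a partner of CHOP, averaged 41.9 and 0.702 CPM in AINlowVitD and AIN, with log2 fold changes of 5.88 ± 0.54 (SE, adjusted p = 1.34e-06) there, 5.40 ± 0.57 (SE, adjusted p = 1.17e-05) in AIN_VdrKO, 6.36 ± 0.60 (SE, adjusted p = 3.46e-06) in NWD1Ca and 5.91 ± 0.55 (SE, adjusted p = 1.65e-06) in NWD1VitD. Atf6b, a relative of ATF6, was lower in the same comparisons, with log2 fold changes of -1.24, -1.1, -1.83 and -1.60. Of 14 amino acid genes of the ATF4 programme, 5 fell in AINlowVitD, 4 in NWD1Ca and 6 in NWD1VitD, while 1 rose in NWD1VitD. The shares called were 35.7%, 28.6% and 50%, and 14.3% in AIN_VdrKO, beside 31.3%, 30.5%, 40.5% and 12.5% of all tested genes in that order. In AIN_VdrKO against AIN, Slc7a11, the cystine importer, rose (3.81 ± 0.90 SE, adjusted p = 0.0091) and the proline enzyme Aldh18a1 fell (-1.46 ± 0.40 SE, adjusted p = 0.0222). Aldh18a1 and the tryptophan synthetase gene Wars had the smallest p-values of this list in AINlowVitD (-1.86 and -1.23). The serine and glycine enzymes Phgdh and Shmt2 had them in NWD1Ca (-2.49 and -1.70) and NWD1VitD (-2.80 and -2.22).

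Of 24 other folding and degradation genes, 4 rose and 10 fell in AINlowVitD, 2 and 6 in AIN_VdrKO, 5 and 7 in NWD1Ca and 6 and 6 in NWD1VitD, or 58.3%, 33.3%, 50% and 50% called. The shares of all tested genes were 31.3%, 12.5%, 30.5% and 40.5%. Ganab and Prkcsh, the subunits of glucosidase II that trims glycans for the lectin chaperones, fell in AINlowVitD (-2.37 and -0.92) and in AIN_VdrKO (-1.79 and -0.96). Ganab fell in NWD1Ca (-1.89) with the isomerase Pdia5 (-1.72), and in NWD1VitD (-1.99) with Prkcsh (-0.87). Of 30 other translocation and glycosylation genes, 4 rose and 7 fell in AINlowVitD, 1 and 4 in AIN_VdrKO, 4 and 7 in NWD1Ca and 6 and 7 in NWD1VitD, or 36.7%, 16.7%, 36.7% and 43.3% called. These were near the 31.3%, 12.5%, 30.5% and 40.5% of all tested genes. Sec62, a partner of the channel, rose in AINlowVitD (2.53), NWD1Ca (2.27) and NWD1VitD (2.41), and Sec61g, the gamma subunit, rose in NWD1VitD (3.29). Srp68, of the signal recognition particle, fell in AINlowVitD (-1.26), AIN_VdrKO (-1.61) and NWD1Ca (-1.16), and Srprb, a subunit of its receptor, fell in AIN_VdrKO (-0.98).

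Among AIN, NWD1 and NWD2, edgeR with the filter on low counts called no member. In NWD1 against AIN, the Western-style diet against the control diet, it called 0 of 39 members and DESeq2 called 1, Derl2. An unadjusted p under 0.05 was found for 7 members (17.9%), near the 15.2% of all tested genes. Of all tested genes 0.766% were called, 0.106% higher and 0.66% lower. The smallest p belonged to Derl2, with 64.4, 56.8 and 65.8 CPM in NWD1 and 109.8, 101 and 101 CPM in AIN and a log2 fold change of -0.72 ± 0.19 (SE, adjusted p = 0.068); the groups did not overlap. DESeq2 gave Derl2 -0.67 (adjusted p = 0.00908), and edgeR without the sex term -0.74 (adjusted p = 0.0388). Dnajb11, a BiP co-chaperone, had -0.70 ± 0.26 (SE, adjusted p = 0.193) and Trib3 -2.06 ± 0.80 (SE, adjusted p = 0.213). Of the fitted values 33 of 39 (84.6%) were below 0, against 53.1% of all tested genes, with a median of -0.38 that became 0.06 on log2(TPM + 1), where all genes were offset by 0.40. Hspa5 had -0.63 ± 0.38 (SE, adjusted p = 0.455), Xbp1 -0.18 ± 0.36 (SE, adjusted p = 0.875), Atf4 -0.52 ± 0.24 (SE, adjusted p = 0.305) and Ddit3 -0.82 ± 0.41 (SE, adjusted p = 0.358).

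NWD2 against AIN called 0 of 39 members with edgeR and 0 with DESeq2, beside 0% of all tested genes called with edgeR. An unadjusted p under 0.05 was found for 7 members (17.9%) and for 6.85% of all tested genes. The smallest p belonged to Manf, a secreted protective factor, with 106, 125 and 132 CPM in NWD2 and 223, 265 and 172 CPM in AIN (-0.88 ± 0.32 SE, adjusted p = 0.718), followed by Sec61b (-1.06 ± 0.44 SE, adjusted p = 0.718) and Derl2 (-0.44 ± 0.19 SE, adjusted p = 0.718). Hspa5 had -0.50 ± 0.38 (SE, adjusted p = 0.773), Xbp1 -0.71 ± 0.37 (SE, adjusted p = 0.72), Atf4 -0.38 ± 0.24 (SE, adjusted p = 0.737) and Ddit3 -0.32 ± 0.40 (SE, adjusted p = 0.866). In NWD2 against NWD1, edgeR and DESeq2 called 0 members each, and edgeR called 0.00623% of all tested genes. An unadjusted p under 0.05 was found for 3 members (7.69%), against 10.7% of all tested genes. Tmed9 had -0.80 ± 0.28 (SE, adjusted p = 0.261), Trib3 2.08 ± 0.78 (SE, adjusted p = 0.313) and P4hb 0.95 ± 0.39 (SE, adjusted p = 0.368). Hspa5 had 0.14 ± 0.38 (SE, adjusted p = 0.916), Xbp1 -0.53 ± 0.35 (SE, adjusted p = 0.6), Atf4 0.14 ± 0.23 (SE, adjusted p = 0.849) and Ddit3 0.51 ± 0.40 (SE, adjusted p = 0.659).

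NWD1VitD against NWD1Ca compares the added vitamin D with the added calcium within the other block. edgeR and DESeq2 called 0 members each, and edgeR called 0% of all tested genes. An unadjusted p under 0.05 was found for 0 members, against 2.32% of all tested genes. The 3 smallest p-values belonged to Dnajc3 (0.43 ± 0.32 SE, adjusted p = 1), Hyou1 (0.51 ± 0.42 SE, adjusted p = 1) and Edem1 (0.43 ± 0.36 SE, adjusted p = 1). Hspa5 had 499, 743 and 693 CPM in NWD1VitD and 646, 721 and 442 CPM in NWD1Ca (0.17 ± 0.41 SE, adjusted p = 1). Xbp1 had 0.37 ± 0.38 (SE, adjusted p = 1), Atf4 -0.27 ± 0.25 (SE, adjusted p = 1) and Ddit3 -0.30 ± 0.43 (SE, adjusted p = 1). Members varied little within these groups, with a median coefficient of variation of 14.3% in NWD1VitD and 13% in NWD1Ca, against 34.3% in NWD1 and 26.8% in AIN. All tested genes did likewise, at 21.7% and 16.4% against 37.5% and 32.7%.

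AIN_VdrKO against AINlowVitD sets the labelled loss of the receptor against a low supply of its ligand, and the groups also lie apart on the first principal component. edgeR called 0 members and DESeq2 called 1, Sec61b. An unadjusted p under 0.05 was found for 4 members (10.3%), against 20.2% of all tested genes, while 3.07% of all tested genes were called, 0.685% higher and 2.38% lower by the adjusted p. Sec61b had 598, 234 and 185 CPM in AIN_VdrKO and 1085, 833 and 1137 CPM in AINlowVitD with no overlap, and its log2 fold change of -1.66 ± 0.45 (SE, adjusted p = 0.0524) became -2.34 (adjusted p = 0.00255) without AIN_VdrKO 1. edgeR also called Sec61b with the replicate block (-1.77, adjusted p = 0.0133) and with no sex term (-1.59, adjusted p = 0.0232). It did so too with no filter (-1.64, adjusted p = 0.00115) and with the GC and length correction (-1.31, adjusted p = 0.0293). Ddit3 had -1.14 ± 0.42 (SE, adjusted p = 0.145), called without AIN_VdrKO 1 (-1.51, adjusted p = 0.0405), and Ssr3 0.75 ± 0.31 (SE, adjusted p = 0.19), called likewise (1.03, adjusted p = 0.0284). Hspa5 had -0.03 ± 0.40 (SE, adjusted p = 0.978), Xbp1 0.60 ± 0.38 (SE, adjusted p = 0.382) and Atf4 -0.20 ± 0.25 (SE, adjusted p = 0.684). On log2(TPM + 1), with all genes offset by 0.74, limma called 16 members higher and 1 lower, beside 30.1% and 2.02% of all genes. Of the other pathway genes, the serine enzyme Psat1 was higher (1.62 ± 0.41 SE, adjusted p = 0.0351) and Sec62 lower (-1.94 ± 0.33 SE, adjusted p = 0.00445).

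Ranked within its group, AINlowVitD 3 was the highest library for 25 of 39 members and for 32.1% of all tested genes, NWD1 3 for 26 members and 38.5% of genes, and AIN 3 for 21 members and 37.9% of genes. NWD1VitD 1 was the lowest for 32 members and 34.2% of genes, NWD1Ca 3 for 30 members and 34.2% of genes, and AIN_VdrKO 1 for 27 members and 47.6% of genes. In NWD2 the members were spread more evenly, the lowest library being NWD2 1 for 17 and NWD2 2 and NWD2 3 for 11 each. The median coefficient of variation of the members was at or below that of all tested genes in each of the 7 groups, at 26.4% and 35.4% in AIN_VdrKO and 16.7% and 21.2% in AINlowVitD for members and for all tested genes. Ssr2 was nearly constant in AINlowVitD (326, 327 and 326 CPM), and Chac1 varied most there (0.544, 0.242 and 2.27 CPM).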

How the data were processed

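Sorted Lgr5 cells were sequenced in bulk from SMART-Seq v4 and Nextera XT libraries, per the labels' protocols, which mark no strand, so reads of overlapping genes cannot be told apart. The deposited count table holds whole-number counts for 37310 genes and 92 spike-ins, and the authors also deposited TPM. The submitters' processing notes name STAR 2.4.2a, HTSeq 0.6.1, edgeR and mm9; which gene annotation was used is not given there. Depth was 19889795 to 115435120 gene counts per library. Spike-ins were left out of library sizes.

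Counts were fitted with edgeR 4.0.16 (R 4.3.3): TMM, filterByExpr, a quasi-likelihood F test, all 21 libraries with group and sex terms, so that all groups share 1 estimate of spread, and a Benjamini-Hochberg threshold of 0.05. DESeq2 1.42.0 and limma 3.58.1 on log2(TPM + 1) were alternatives, beside no filter, no sex term, a replicate block, fits of 2 groups, left-out libraries and a correction for GC content and length that was chosen after seeing the data. The fitting scripts were tested on simulated data. Promoters are RefSeq's (GRCm38.p6), and exon overlaps come from a reference annotation matched by gene ID.

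The members and lists were chosen with earlier results of these data known. Genes named in each comparison are the called members with the 4 largest rises and falls (the 3 smallest p-values where none was called), Hspa5, Xbp1, Atf4 and Ddit3, and the 2 smallest p-values called in each other list; further members are named to account for all calls and were chosen after their values were seen. The labels word the vitamin D and calcium doses per g of body weight. Only the RNA of the listed groups was analysed here, and protein sequences were not used here.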

Additional observations from a re-analysis of the deposited data

How the results depend on the processing

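Of 55 called member results, 21 were kept in every fit that left out 1 library of the compared groups, and of 800 values of these results over all alternatives 641 kept direction and call, 151 kept direction only and 8 reversed. Counts of called members moved by over 1.5 times as follows. NWD1 against AIN gave 1 with DESeq2, with no filter on low counts and with no sex term, and 0 to 0 with 1 library left out. NWD2 against AIN gave 0 to 1 with 1 library left out. NWD2 against NWD1 gave 1 with no filter. AINlowVitD against AIN gave 30 with limma on log2(TPM + 1) and 8 to 16 with 1 library left out. AIN_VdrKO against AIN gave 3 when only these 2 groups were fitted, and 2 to 10 with 1 library left out. Its count also moved without AIN 1, AIN 2 and NWD1 1, a fit with AIN 3 as the only AIN library. NWD1Ca against NWD1 gave 32 with limma and 6 to 17 with 1 library left out. NWD1VitD against NWD1 gave 33 with limma and 9 to 14 with 1 library left out. AIN_VdrKO against AINlowVitD gave 17 with limma, 1 each with the GC and length correction (chosen after seeing the data), DESeq2, no filter, no sex term and the replicate block, and 0 to 3 with 1 library left out. Values that reversed did so with limma on log2(TPM + 1). Among called results this was Dnajc3 (-0.23) in AINlowVitD against AIN. In NWD1Ca against NWD1 it was Dnajc3 (-0.21), Edem1 (-0.14) and Ssr4 (-0.05). In NWD1VitD against NWD1 it was Ddit3 (-0.32), Dnajc3 (-0.09), Edem1 (-0.02) and Ssr4 (-0.18). Members that edgeR had not called reversed too: Atf4 (-1.06) in AINlowVitD against AIN, and Xbp1 (-1.39) and Atf4 (-1.19) in NWD1VitD against NWD1. The cause was not tested. Replicate numbers were not treated as pairs, since in no comparison were all 3 correlations of same-numbered libraries over 0.1. With 3 libraries per group this rule cannot exclude a shared replicate batch. In NWD1 against AIN the correlations were 0.316, 0.0108 and 0.409. With the replicate block, AINlowVitD against AIN gave 18 calls, AIN_VdrKO against AIN 8, NWD1Ca and NWD1VitD against NWD1 15 each, AIN_VdrKO against AINlowVitD 1 and the remaining comparisons 0, and Hspa5 in AINlowVitD against AIN was then called (-0.85, edgeR adjusted p = 0.0402). Genes near 1 CPM, such as Chac1, carry few reads and wide standard errors.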
